A study of Mus musculus with 15 samples.

Results

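Bone morphogenetic protein (BMP) signaling was followed in mouse dental mesenchymal cells (mDMCs) through 10 genes: the ligands Bmp4 and Bmp7, the secreted antagonists Nog and Chrd, the receptors Bmpr1a and Bmpr2, and the response genes Id1, Id2, Id3 and Smad6. All 10 had a row among the 12089 transcripts of the RNA-seq table. mDMCs are single cells released with trypsin from the mesenchyme of mandibular molar germs of ICR mouse embryos at embryonic day 14.5, after dispase had been used to remove the epithelium. The groups were freshly isolated mDMCs (0 h, labelled D0, n = 3 libraries), mDMCs kept in culture with FBS for 12 h (D0.5, n = 2), 24 h (D1, n = 3), 36 h (D1.5, n = 3) or 48 h (D2, n = 3), and dental mesenchymal tissue (n = 1, no replicate). No group carried a transgene, a deletion or a drug, and the labels do not say whether libraries of a time point came from separate isolations, so that p-values measure only the spread between these libraries, which may be technical.

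BMP ligands bind pairs of type I and type II serine/threonine kinase receptors, which phosphorylate SMAD1, SMAD5 and SMAD9. These enter the nucleus with SMAD4 and switch on targets such as the Id genes, which encode inhibitors of basic helix-loop-helix factors, and Smad6, which encodes an inhibitor of the same pathway. Noggin and chordin hold ligands away from the receptors. In the tooth germ, Bmp4 is known as a mesenchymal signal that acts with Msx1 in the exchange of signals with the epithelium.

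Values are normalized scores, whole numbers that had been brought to nearly the same distribution in every library (median 721, largest value 127101). A score is therefore close to a rank within its library, identical scores recur in different libraries, and read depth is unknown. Scores were compared between libraries but not between genes, except in choosing which markers to name. Changes were estimated on log2(score + 1) with limma over the 14 mDMC libraries, and a change was called at a Benjamini-Hochberg adjusted p below 0.05 over 12079 transcripts tested. All 10 genes passed the filter on low values, Bmp7 through the libraries of 0 h only.

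The promoters of 7 of the 10 genes were found in the RefSeq table (GRCm38.p6, the build also called mm10), and those of Nog, Bmp7 and Id1 were not. The 4 shown are those whose RefSeq start equals the start of the transcript in the expression table, and they belong to genes that rose at all 4 culture times (Bmp4, Smad6), fell at all 4 (Chrd) or fell at 24 and 36 h (Id2). Each is the 250 bases before the start, 5′ to 3′ on the strand of the gene, at chr14:46390670-46390919 (minus strand) for Bmp4, chr9:64022060-64022309 (minus) for Smad6, chr16:20732877-20733126 (plus) for Chrd and chr12:25096093-25096342 (minus) for Id2. Capitals mark every match, on either strand, to GGCGCC or GGAGCC, GC-rich elements that SMAD1 and SMAD5 are known to bind; no match overlapped another.
Bmp4: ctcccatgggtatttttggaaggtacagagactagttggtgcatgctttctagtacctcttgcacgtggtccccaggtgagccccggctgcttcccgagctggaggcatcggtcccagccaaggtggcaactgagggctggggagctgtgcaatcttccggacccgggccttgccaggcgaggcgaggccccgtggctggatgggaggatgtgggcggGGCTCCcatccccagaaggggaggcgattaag
Smad6: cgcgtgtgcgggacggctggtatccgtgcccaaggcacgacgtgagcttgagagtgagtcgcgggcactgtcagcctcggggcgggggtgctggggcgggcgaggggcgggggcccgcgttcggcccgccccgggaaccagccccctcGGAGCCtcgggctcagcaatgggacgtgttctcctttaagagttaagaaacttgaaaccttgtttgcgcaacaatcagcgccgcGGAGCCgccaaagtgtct
Chrd: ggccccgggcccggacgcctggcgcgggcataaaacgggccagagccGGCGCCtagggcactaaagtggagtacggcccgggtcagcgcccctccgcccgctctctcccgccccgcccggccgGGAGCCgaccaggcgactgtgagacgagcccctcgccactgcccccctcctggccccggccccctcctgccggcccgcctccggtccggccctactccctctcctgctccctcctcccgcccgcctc
Id2: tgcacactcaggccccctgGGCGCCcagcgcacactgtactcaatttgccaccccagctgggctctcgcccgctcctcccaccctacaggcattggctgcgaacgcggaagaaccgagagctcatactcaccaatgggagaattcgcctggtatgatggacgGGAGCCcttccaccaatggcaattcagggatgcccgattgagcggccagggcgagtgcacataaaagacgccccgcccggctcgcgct
GGAGCC, or its reverse complement GGCTCC, was present in all 4 windows, at 32 bases before the start in Bmp4, at 127 in Chrd, at 88 in Id2 and at 102 and 18 in Smad6. GGCGCC was present in Chrd and Id2. Of all 7 windows searched, 5 held GGAGCC, with Bmpr1a and Bmpr2 the exceptions, 4 held GGCGCC, and 1, that of Id3, held CAGAC. Across the table GGAGCC was present in 26.0% of the 32851 windows of the same length in the table, and GGCGCC in 9.59%. The CAGA box CAGAC, present in 42.2% of all windows, and the palindrome GTCTAGAC, in 0.167%, had no match in these 4. The windows were GC-rich, with 63.2% G and C in Bmp4, 66.8% in Smad6, 78.0% in Chrd and 62.8% in Id2, against a median of 52.4%. Genes that rose and genes that fell both held the GC-rich elements.

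The ligands and the antagonists each held a gene that was higher and a gene that was lower in culture than at 0 h. Bmp4 rose and Bmp7 fell, and Nog rose and Chrd fell. All 11 culture libraries lay above all 3 libraries of 0 h for Bmp4, Nog, Id3 and Smad6, which 24.6% of all transcripts did, and all 11 lay below for Bmp7 and Chrd, which 22.6% of all transcripts did. For Bmpr1a, Bmpr2, Id1 and Id2 the groups overlapped. At 12 h, 4 of the 10 genes were called higher and 2 lower than at 0 h, where 29.9% and 28.3% of all transcripts tested were called. At 24 h, 4 were higher and 3 lower (35.0% and 31.8% of all transcripts). At 36 h, 4 were higher and 3 lower (36.0% and 34.0%), and at 48 h, 4 were higher and 3 lower (37.1% and 34.0%). The shares of the 10 genes thus lay near those of all transcripts. The median log2 change of the 10 genes was 0.34 at 12 h and -0.27 at 48 h, and that of all transcripts tested was 0.02 and 0.03. At 12 h the middle values of the 10 were those of Bmpr1a and Bmpr2, neither of them called. That of Bmpr2 ranged from -0.09 to 1.12 when a library was left out.

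**Figure D1:**
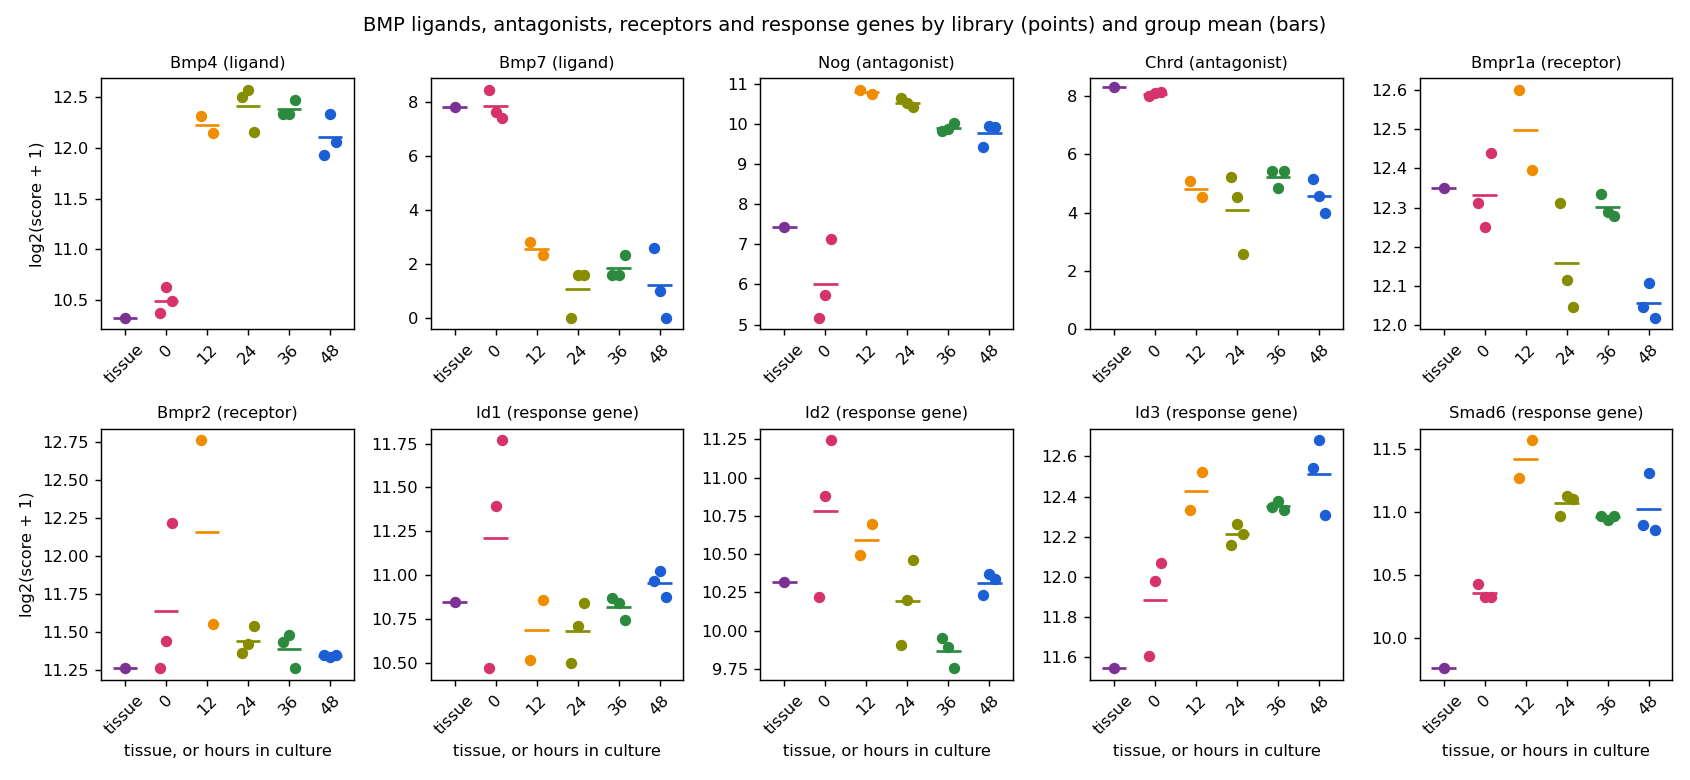
log2(score + 1) of the 10 genes (vertical axes, scaled to each gene) in the tissue and at 0, 12, 24, 36 and 48 h (horizontal axes); points are libraries and bars group means. For Bmp4 the culture libraries lie between 3906 and 6078 as scores and those of 0 h between 1326 and 1580, whereas for Id1 the libraries of 0 h span 1415 to 3485 and cover all the others.

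Bmp4, on chromosome 14 (chr14:46383520-46390669, minus strand, 4 exons), encodes the main mesenchymal ligand of the set. Its scores were 1326, 1580 and 1436 at 0 h, 5074 and 4515 at 12 h, 5772, 6078 and 4573 at 24 h, 5154, 5154 and 5667 at 36 h, with 3906, 5154 and 4272 at 48 h. The lowest culture library stood well above the highest library of 0 h. Bmp4 rose 3.31-fold by 12 h (log2 change 1.73, SE 0.14, limma adjusted p = 4.7e-07) and was 3.06-fold above 0 h at 48 h (1.61, SE 0.12, adjusted p = 1.4e-07). The scores of the 4 culture times were not shown to differ (F-test of limma, adjusted p = 0.175). In the tissue Bmp4 had a score of 1285, just below the range of 0 h.

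Bmp7, on chromosome 2 (chr2:172868012-172940321, minus strand, 7 exons), encodes a ligand that dental epithelium also makes. Its scores were 350, 200 and 170 at 0 h and 222 in the tissue. They were 6 and 4 at 12 h, 0, 2 and 2 at 24 h, 2, 2 and 4 at 36 h, with 5, 1 and 0 at 48 h, so that the transcript was at or near 0 in every culture library. The log2 change was -5.28 at 12 h (SE 0.77, adjusted p = 7.7e-05) and -6.65 at 48 h (SE 0.69, adjusted p = 2.0e-06). Because Bmp7 was tested through the libraries of 0 h, a call could only be of a fall. The size of this fall depended on the pseudocount, and with a pseudocount of 16 it was -3.55 and -3.78.

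The freshly isolated library with the highest Bmp7, replicate 1, also held the highest summed score of epithelial markers, 14067 against 1514 and 1883 in the other two, and the tissue had 5059. Of 8 epithelial markers with a row, 1 was lower at 12 h and 3 at 24 h, and later 6 (36 h) and 5 (48 h). Of all transcripts tested, 28.3%, 31.8%, 34.0% and 34.0% were lower at these times. The sum was 2339 and 2732 at 12 h, above those of replicates 2 and 3 of 0 h, and lay between 91 and 2134 at the later times, whereas Bmp7 was already at 6 and 4 at 12 h. Krt14, a keratin of basal epithelium, had scores of 645 to 5832 at 0 h and 1381 and 1775 at 12 h, and Krt5 was at 0 in a library of 36 h. The part of epithelial RNA in the fall of Bmp7 was not tested. Without replicate 1 of 0 h the log2 changes of Bmp7 were -4.97, -6.48, -5.70 and -6.34 at the 4 times.

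Nog (chr11:89300638-89302332, minus strand, 1 exon) encodes noggin, which binds BMP4 tightly. Its scores were 35, 52 and 138 at 0 h and 172 in the tissue, and 1839 and 1699 at 12 h. They were 1593, 1475 and 1356 at 24 h, 906, 929 and 1029 at 36 h, with 684, 991 and 961 at 48 h. Nog was low in every uncultured library and high in every culture library, with the highest scores at 12 h. It rose 27.5-fold by 12 h (log2 change 4.78, SE 0.39, adjusted p = 5.6e-07) and stood 13.5-fold above 0 h at 48 h (3.76, SE 0.35, adjusted p = 7.7e-07).

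The scores of Nog at 36 and 48 h all lay below those at 12 and 24 h. The log2 change from 24 to 36 h was -0.63 and was not called (adjusted p = 0.226). Nor was the change from 12 to 48 h, a comparison added after seeing the data (-1.03, SE 0.39, adjusted p = 0.0508). The spread of Nog at 0 h enters these tests, since its libraries there differ 3.94-fold. With the culture libraries alone, also chosen after seeing the data, both changes were called (adjusted p = 0.0111 and 0.000454). Without replicate 3 of 0 h the change from 24 to 36 h was called as well (adjusted p = 0.0187).

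Chrd (chr16:20733127-20738152, plus strand, 14 exons) encodes chordin, the other antagonist. Its scores were 256, 276 and 281 at 0 h and 319 in the tissue. In culture they were 33 and 22 at 12 h, 36, 22 and 5 at 24 h, 42, 28 and 42 at 36 h, with 35, 23 and 15 at 48 h, all far below the libraries of 0 h. The log2 change was -3.28 at 12 h (SE 0.59, adjusted p = 4.3e-04) and -3.50 at 48 h (SE 0.53, adjusted p = 6.2e-05). No difference among the culture times was called (adjusted p = 0.331), although without replicate 1 of 24 h the rise from 24 to 36 h was (1.68, adjusted p = 0.0352).

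**Figure D2:**
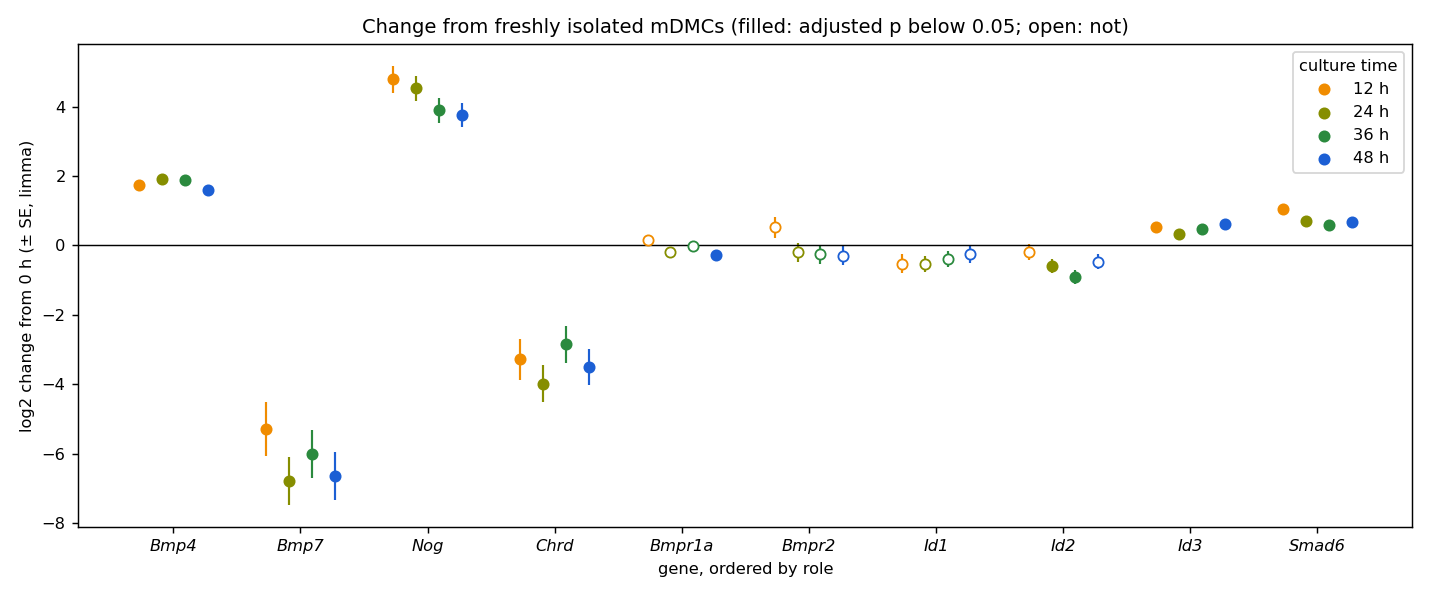
Log2 change from 0 h (vertical axis, estimate ± SE from limma) of each gene (horizontal axis) at 12, 24, 36 and 48 h; filled points had an adjusted p below 0.05. Bmp4 and Nog lie above 0 and Bmp7 and Chrd below at each time, with Nog at 4.78 and Bmp7 at -5.28 at 12 h, while Bmpr1a, Bmpr2, Id1 and Id2 stay within 1 unit of 0.

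The receptors changed little against the ligands and antagonists. Bmpr1a (chr14:34410734-34502687, minus strand, 13 exons) encodes a type I receptor of BMP4. Its scores were 5081, 4868 and 5549 at 0 h, 6209 and 5388 at 12 h, 5081, 4435 and 4228 at 24 h, 5164, 5002 and 4968 at 36 h, 4228, 4409 and 4149 at 48 h, and 5222 in the tissue. The libraries of 48 h all lay below those of 0 h, those of 12 h and those of 36 h. At 48 h Bmpr1a was 1.21-fold below 0 h (log2 change -0.28, SE 0.09, adjusted p = 0.0113), and the changes at 12, 24 and 36 h were 0.17, -0.18 and -0.03 and were not called, except that without replicate 1 of 24 h the change at 24 h was -0.25 (adjusted p = 0.0214). It was also lower at 48 h than at 12 h (-0.44, SE 0.10, adjusted p = 0.0030).

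Bmpr2 (chr1:59763400-59879014, plus strand, 13 exons) encodes the type II receptor of the set. Its scores were 2459, 2774 and 4768 at 0 h, 6948 and 2996 at 12 h, 2632, 2743 and 2978 at 24 h, 2765, 2850 and 2451 at 36 h, 2606, 2580 and 2606 at 48 h, and 2459 in the tissue. Replicate 3 of 0 h and replicate 1 of 12 h stood apart, and the other libraries lay between 2451 and 2996. No change from 0 h was called (log2 change 0.52 at 12 h, SE 0.30, adjusted p = 0.157, and -0.30 at 48 h, SE 0.27, adjusted p = 0.334). At 12 h the log2 change was 1.12 without replicate 2 of 12 h (adjusted p = 0.0043), 0.80 without replicate 3 of 0 h (adjusted p = 0.0232) and -0.09 without replicate 1 of 12 h.

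The transcript of Bmpr2 has 12899 bases, and 0.48% of transcripts are longer. In the same 2 libraries long transcripts in general had higher scores than in the rest of their time point. Among transcripts of at least 6000 bases, 74.9% were higher in replicate 3 of 0 h than the mean of the other two (median log2 difference 0.20), and among transcripts under 1500 bases the median was -0.16. In replicate 1 of 12 h 79.2% of the long transcripts were higher than in replicate 2 (median 0.23), and the median of the short ones was -0.19. The log2 difference of Bmpr2 was 0.87 and 1.21 in these libraries, and that of Bmpr1a, a transcript of 5956 bases, was 0.16 and 0.20. The part of transcript length in the scores of Bmpr2 was not tested.

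**Figure D3:**
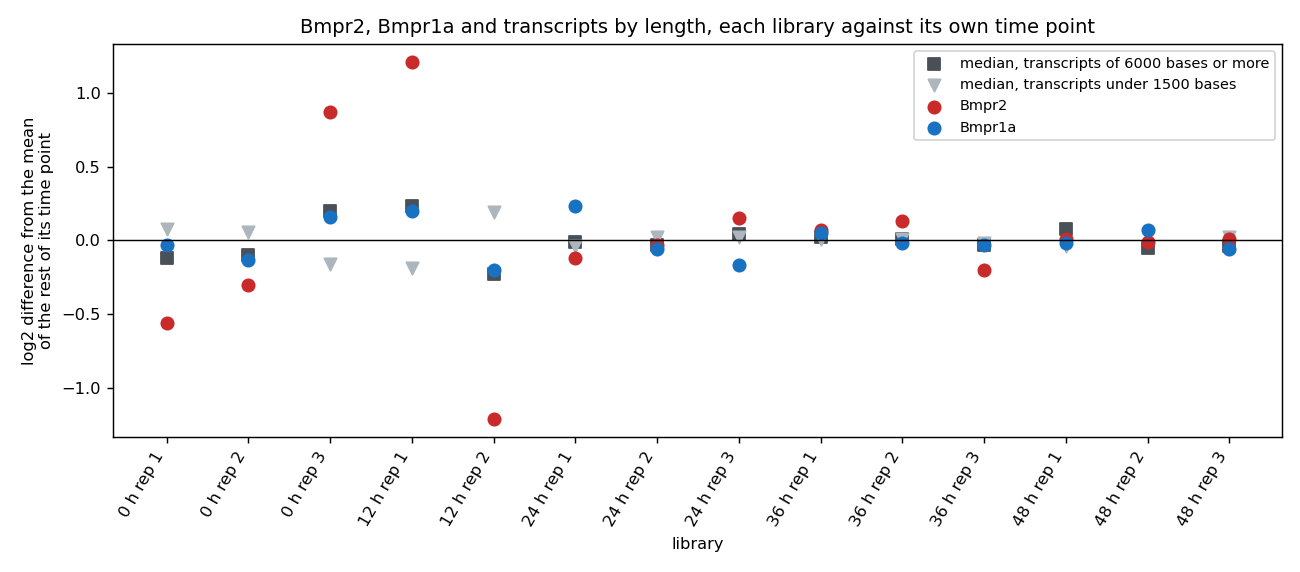
Log2 difference of each library (horizontal axis) from the mean of the rest of its time point (vertical axis), for Bmpr2, Bmpr1a, and the median of long and of short transcripts; with 2 libraries at 12 h their differences mirror each other. Bmpr2 stands at 0.87 in replicate 3 of 0 h and at 1.21 in replicate 1 of 12 h, where the median of long transcripts is 0.20 and 0.23.

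The response genes did not move as a group. Smad6 and Id3 rose, Id2 fell at 24 and 36 h, and no change of Id1 was called. Smad6 (chr9:63953076-64022059, minus strand, 4 exons), the inhibitory SMAD, had scores of 1374, 1282 and 1279 at 0 h, 2472 and 3037 at 12 h, 2008, 2241 and 2204 at 24 h, 2002, 1958 and 2002 at 36 h, with 1911, 2541 and 1858 at 48 h. Every culture library was above every library of 0 h, and the tissue, at 865, was below all of them. Smad6 rose 2.09-fold by 12 h (log2 change 1.06, SE 0.13, adjusted p = 1.5e-05) and was 1.59-fold above 0 h at 48 h (0.67, SE 0.11, adjusted p = 1.7e-04). It was lower at 48 h than at 12 h (-0.40, SE 0.13, adjusted p = 0.0243), a call that was lost without replicate 2 of 12 h (-0.25) or replicate 1 or 3 of 48 h (-0.33 and -0.31).

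Id3 (chr4:136143497-136145392, plus strand, 3 exons) had scores of 3114, 4038 and 4300 at 0 h, 5152 and 5892 at 12 h, 4570, 4923 and 4750 at 24 h, 5205, 5329 and 5152 at 36 h, with 5970, 6559 and 5072 at 48 h. The lowest culture library, at 24 h, was only slightly above the highest library of 0 h. The log2 change was 0.54 at 12 h (SE 0.13, adjusted p = 0.00391), 0.33 at 24 h (SE 0.12, adjusted p = 0.0285), 0.47 at 36 h and 0.63 at 48 h (SE 0.12, adjusted p = 4.4e-04). The call at 24 h was lost without replicate 1 of 0 h or without replicate 2 or 3 of 24 h (0.19, 0.30 and 0.33). In the tissue Id3 had a score of 2985, below the range of 0 h.

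Id2 (chr12:25093801-25096092, minus strand, 3 exons) had scores of 1191, 1880 and 2421 at 0 h, 1440 and 1655 at 12 h, 960, 1176 and 1408 at 24 h, 987, 951 and 862 at 36 h, 1203, 1320 and 1294 at 48 h, and 1274 in the tissue. The libraries of 36 h all lay below those of 0 h, and at the other times the ranges overlapped. The log2 change was -0.91 at 36 h (SE 0.21, adjusted p = 0.00147) and -0.59 at 24 h (SE 0.21, adjusted p = 0.0223). The call at 24 h was lost without replicate 2 or 3 of 0 h or replicate 1 of 24 h (-0.54, -0.36 and -0.45). It was -0.19 at 12 h and -0.47 at 48 h (adjusted p = 0.513 and 0.0576).

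Id1 (chr2:152736251-152737410, plus strand, 2 exons) had scores of 1415, 2687 and 3485 at 0 h, 1464 and 1856 at 12 h, 1444, 1675 and 1831 at 24 h, 1868, 1831 and 1711 at 36 h, 2001, 2080 and 1873 at 48 h, and 1839 in the tissue. Replicate 1 of 0 h was below every culture library, and the other two were above every one. The log2 change lay between -0.53 at 24 h (SE 0.24, adjusted p = 0.0685) and -0.26 at 48 h (SE 0.24, adjusted p = 0.356), and none was called. Without replicate 1 of 0 h Id1 was called lower at all 4 times, with log2 changes of -0.89, -0.90, -0.76 and -0.63, and without replicate 3 the change at 48 h was 0.02. Without replicate 1 of 0 h Id2 was also called lower at 12 and 48 h (-0.47 and -0.75), and the genes called lower numbered 4 at 12 h and 5 at 48 h, where that fit called 26.8% and 32.9% of all transcripts lower.

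Replicate 1 of 0 h was the lowest of its group for 7 of the 10 genes, as it was for 31.8% of all transcripts, and replicate 3 was the highest for 7, as it was for 34.1%. Both held for Id1, Id2, Id3, Nog, Chrd and Bmpr2, although for Chrd these libraries differed only 1.1-fold. The share of all transcripts for which both held was not computed.

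After 12 h few steps between neighbouring times were called. From 12 to 24 h, 1 of the 10 genes was lower and none higher, where 3.67% and 4.59% of all transcripts were called: Bmpr1a, at -0.34 (SE 0.10, limma adjusted p = 0.0465). This call was lost in 10 of the 14 fits that left out 1 library and in several other settings. From 36 to 48 h and from 24 to 36 h none of the 10 was called by limma, in either direction. The number with an unadjusted p below 0.05 was 3 and 0, where 13.4% and 34.8% of all transcripts had one. By adjusted p, 0.0248% of all transcripts were called lower and 0.0% higher from 36 to 48 h, and 9.64% and 10% from 24 to 36 h. From 12 to 48 h, 3 were lower and none higher, where 21.0% and 21.2% of all transcripts were called. These were Bmpr1a, Smad6 and Bmpr2, the last at -0.81 (SE 0.30, adjusted p = 0.0437) and at -0.21 without replicate 1 of 12 h (adjusted p = 0.603). The call of Bmpr2 was lost in 11 of the 14 fits that left out 1 library. Over all 14 the log2 change ranged from -1.42 to -0.21. Over all 5 times, 8 of the 10 genes differed by the F-test of limma, as 80.0% of all transcripts did, and the exceptions were Bmpr2 and Id1. Among the 4 culture times 2 genes differed, Bmpr1a and Smad6, as 41.9% of all transcripts did.

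Other genes of the pathway were taken from a list of 57, of which 46 had a row. At 12 h 18 were higher and 16 lower than at 0 h, and at 48 h 15 were higher and 22 lower (29.9% and 28.3%, and 37.1% and 34.0%, of all transcripts). Their median log2 change was 0.17 at 12 h, and it was -0.17 at 48 h. At 48 h each role held genes that rose and genes that fell.

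Among 13 other extracellular antagonists and modulators, 5 were higher and 7 lower at 48 h. Grem1, which encodes the antagonist gremlin, rose from scores of 286 to 465 at 0 h to 4739 and 5066 at 12 h, 12464 to 13634 at 24 h, 19215 to 28694 at 36 h and 23160 to 36335 at 48 h. The libraries of 12, 24 and 36 h did not overlap, and the steps from 12 to 24 h and from 24 to 36 h were called (log2 change 1.42 and 0.78, adjusted p = 0.00329 and 0.0197). Its log2 change from 0 h was 3.75 at 12 h (SE 0.23, adjusted p = 5.0e-08) and 6.43 at 48 h (SE 0.20, adjusted p = 6.3e-11), and it was 2.67 from 12 to 48 h (SE 0.23). Crim1, a membrane protein that binds BMPs, rose from 1648 to 1731 at 0 h to 11714 and 15178 at 12 h, and lay between 13330 and 14465 at 48 h (3.03, SE 0.09). Sostdc1, an antagonist of BMP and Wnt signals in the tooth germ, fell from 2291 to 3474 at 0 h to 141 to 527 at 48 h (-3.51, SE 0.41, adjusted p = 5.8e-06). Kcp, a chordin-like protein measured here through a retained-intron transcript, fell from 342 to 409 to 7 to 12 (-5.06, SE 0.30). Its scores at 48 h lie near 0, so that the size of this change depends on the pseudocount.

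Among 7 other ligands, 2 were higher and 4 lower at 48 h. Bmp8b had scores of 0 to 2 at 0 h and 1 in the tissue, and 111 to 615 in the culture libraries. It was tested through the culture libraries alone, so that a call against 0 h could only be of a rise. No fold is given because its size depends on the pseudocount. Gdf10 fell from 505 to 755 at 0 h to 12 to 28 at 48 h (-4.94, SE 0.29), Bmp3 from 495 to 555 to 27 to 51 (-3.82, SE 0.32), and Bmp6 from 434 to 547 to 62 to 95 (-2.75, SE 0.26). The scores of Gdf10 at 48 h lie near 0, so that the size of its change depends on the pseudocount too. Gdf6 also rose, from 47 to 64 at 0 h to 120 to 200 at 48 h, and Bmp5 also fell, from 290 to 325 to 49 to 94.

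Among 7 other receptors and co-receptors, 2 were higher and 4 lower at 48 h. Bmpr1b, a type I receptor like Bmpr1a, rose from 37 to 58 at 0 h to 167 to 270 at 48 h (2.12, SE 0.21, adjusted p = 1.6e-06). Acvrl1, a type I receptor best known from endothelium, rose from 912 to 1090 to 4084 to 5074 (2.19, SE 0.09, adjusted p = 7.3e-10). The co-receptors Rgma and Rgmb fell, with log2 changes of -1.60 (SE 0.30) and -1.28 (SE 0.16).

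Among 12 SMADs and intracellular regulators, 4 were higher and 4 lower at 48 h. Smad5, a signal carrier of the pathway, fell from 3790 to 4739 at 0 h to 1415 to 1562 at 48 h (-1.46, SE 0.12, adjusted p = 3.6e-07). Smad7, which encodes an inhibitory SMAD like Smad6, rose, with a log2 change of 0.66 (SE 0.16, adjusted p = 0.00283) beside the 0.67 of Smad6. The ubiquitin ligase genes Smurf2 and Smurf1, the latter measured through a retained-intron transcript, rose, with log2 changes of 1.21 (SE 0.06) and 1.02 (SE 0.10).

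Among 7 other response genes, 2 were higher and 3 lower at 48 h. Id4 rose from 515 to 968 at 0 h to 2596 and 3183 at 12 h and 1936 to 2673 at 48 h (log2 change 1.93, SE 0.22, and 1.64, SE 0.20), and was the most changed of the Id family, in which Id3 rose at both times and Id2 was not called at either. Atoh8 rose from 55 to 131 to 428 to 671 at 48 h (2.74, SE 0.27). Hey1, which is also a target of Notch signaling, was not called at 12 h (-0.22) and was lower at 48 h (-1.45, SE 0.24). Dlx3 had scores of 81 to 116 at 0 h, 38 and 74 at 12 h, 2 to 14 at 24 h, 0 to 2 at 36 h and 4 to 6 at 48 h. It passed the filter on low scores through the libraries of 0 and 12 h alone, so that a call against 0 h at the later times could only be of a fall, and no fold is given because its size depends on the pseudocount.

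**Figure D4:**
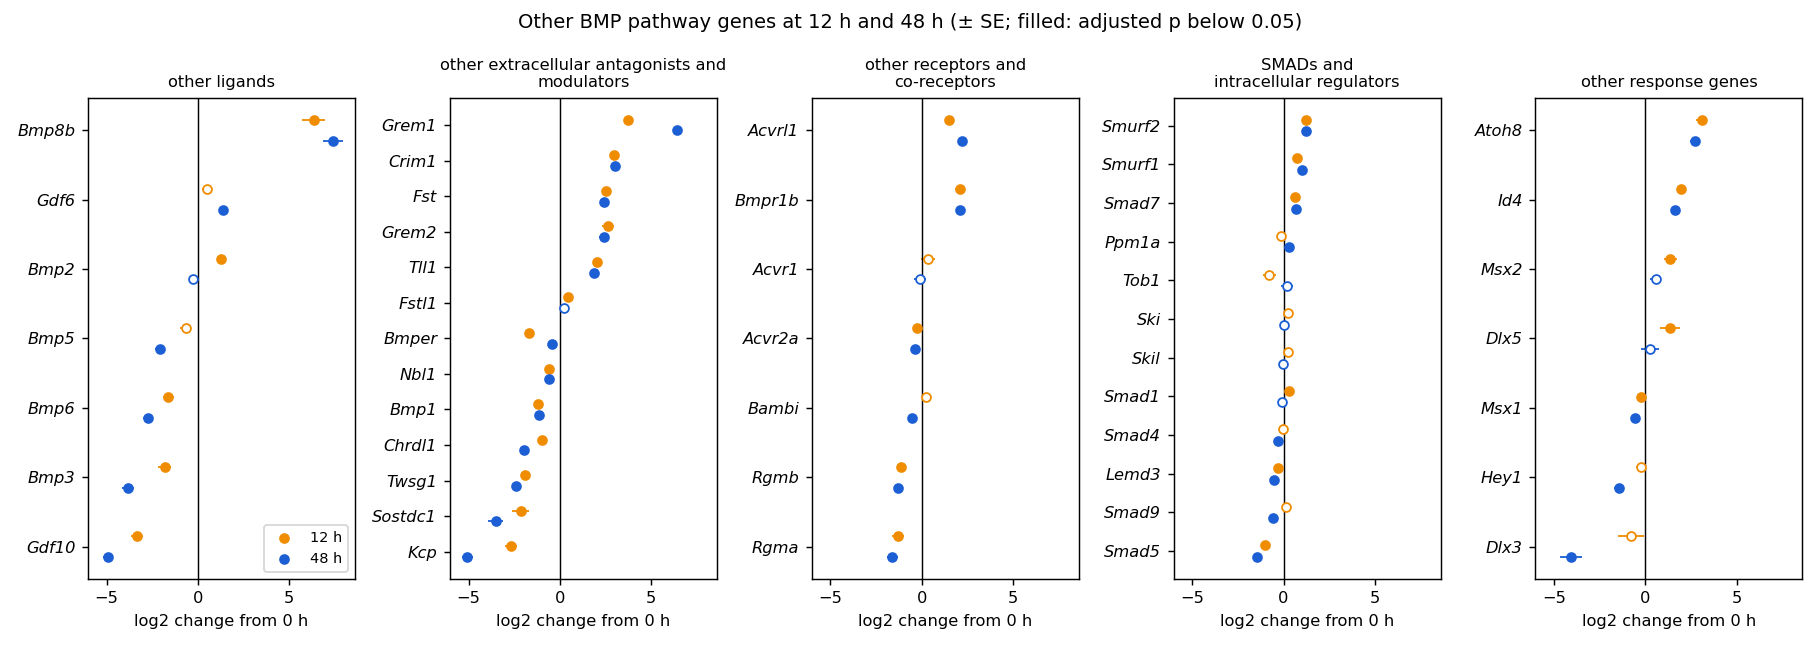
Log2 change from 0 h (horizontal axes, estimate ± SE from limma) of the 46 other BMP pathway genes with a row, by role, at 12 h and 48 h; filled points had an adjusted p below 0.05. Grem1 moves from 3.75 at 12 h to 6.43 at 48 h, while Crim1 stays near 3 (2.98 and 3.03), and rises and falls stand side by side in every role.

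Marker genes of other cell types moved with the step from 0 h to culture. In such bulk libraries fewer cells of a type and less RNA per cell cannot be told apart. The summed score of 7 endothelial markers was 7965 to 9463 at 0 h and 397 to 861 in culture. At each time 7 of 7 were lower, where 28.3%, 31.8%, 34.0% and 34.0% of all transcripts were at 12, 24, 36 and 48 h. Cldn5 and Esam passed the filter on low scores through the libraries of 0 h only, so that a call could only be of a fall. Kdr, a receptor of vascular endothelial growth factor, had scores of 2466 to 2942 at 0 h, Cldn5 was at 0 in every library of 24, 36 and 48 h, and Cdh5 in a library of 36 h. The sum of 6 blood and macrophage markers fell from 72331 to 115798 to 301 to 886, among them the globin gene Hbb-bs (36325 to 70508 at 0 h) and Hba-x, which was at 0 in most culture libraries. The part of these cells in the changes of the 10 genes was not tested. All 9 dental mesenchyme markers had a row, and their sum was 80621 to 96201 at 0 h and 45938 to 92253 in culture, with Prrx1 at 40667 to 50479 at 0 h. At 24 h Prrx1 lay between 31853 and 70675. Of the 9, 7 were lower at 48 h and none was higher (34.0% and 37.1% of all transcripts). At 12 h 7 were lower and 1 was higher (28.3% and 29.9%). Among them Msx1, which acts with Bmp4, fell from 5030 to 5473 to 3238 to 3770 at 48 h (log2 change -0.58, SE 0.08), while Bmp4 rose.

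**Figure D5:**
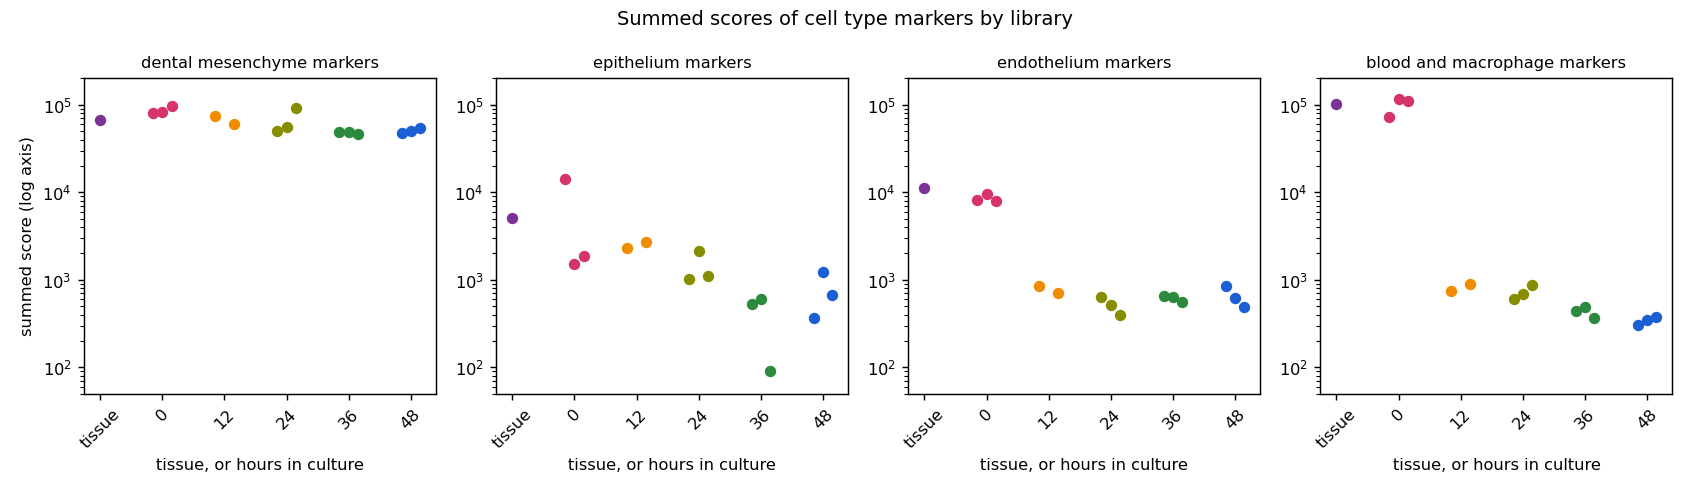
Summed score (log axis) of dental mesenchyme, epithelium, endothelium, and blood and macrophage markers in each library of the tissue and of 0, 12, 24, 36 and 48 h (horizontal axes). The endothelial sum lies between 7965 and 9463 at 0 h and between 397 and 861 in culture, and the epithelial sum of replicate 1 of 0 h, 14067, stands above all others.

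For each of the 6 genes whose libraries of 0 h and culture did not overlap, the tissue lay outside the range of culture, on the side of 0 h. It lay within the range of 0 h for Bmp7, Bmpr1a, Bmpr2, Id1 and Id2, below it for Bmp4, Id3 and Smad6 (log2 difference from the mean of 0 h -0.17, -0.34 and -0.60), and above it for Nog and Chrd (1.43 and 0.24). With 1 tissue library these differences have no replicate check.

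The genes whose scores followed each of the 10 most closely were sought among 5181 genes whose group means spanned at least 1 log2 unit, by Pearson's r over the 14 mDMC libraries, a description that mostly reflects the step from 0 h to culture. For Bmp4 they were Yif1b (r = 0.996), Tspan2 and Chst7, and for Nog Tgfb1i1 (0.987), Aacs and Lrrc15. For Bmp7 they included Igfbp5 (0.982) and Gprc5c, and for Chrd Gucy1a1 (0.969), Ephb3 and Sema4c. For Smad6 they were Fut8 (0.946), Nsf and Wdr1, for Id3 Alkbh2 (0.891), Tprn and Irak1bp1, for Id2 they included Prr7 (0.906) and Socs1, and for Id1 they were Icam1 (0.821), P4htm and Csrnp1. Such a clear step is absent for Id1, Id2, Bmpr1a and Bmpr2, whose libraries of 0 h and culture overlapped. Over the 11 culture libraries alone r with Id1 was 0.49 for Icam1, 0.743 for P4htm and -0.429 for Csrnp1. The nearest genes of the receptors had long transcripts: Pom121 (0.970), Bcorl1 and Ncoa6, of 5580, 7446 and 7101 bases, for Bmpr2, and Tmtc1 (0.911), Fry and Fbn2, of 8383, 10893 and 11041 bases, for Bmpr1a, where the median of all transcripts was 2885 bases. None of the nearest genes named here was on the BMP lists.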

How the data were processed

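RNA-seq was analysed in 15 libraries, grouped by the time points and replicate numbers of the sample labels. The authors removed adaptor sequence, used bowtie and RSEM (version 1.1.21 per the submitters' processing notes, where the paper names another) on Ensembl transcripts of mm10, and used DESeq2 for their own comparisons. They deposited 1 table of normalized expression scores, whole numbers named as cpm whose library totals of 21357605 to 21365980 exceed that unit. The libraries share the same value at 71.9% of ranks, so depth is unknown and only replicates give the precision. The number of columns of values left unused was 0.

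Of 12089 transcripts, 11973 were matched to a gene symbol with GENCODE (GRCm38). Scores were taken as log2(score + 1) and fitted in limma 3.58.1 (R 4.3.3) over the 14 mDMC libraries, with 1 mean per time point, eBayes with an intensity trend and Benjamini-Hochberg adjustment. The tissue was left out of the fit. A transcript was tested if its score reached 1 ppm of the total in 2 or more libraries. The step was tested on simulated data with 200 changed genes. Other steps used Python 3.11.15 with pandas 2.3.3, numpy 2.4.6 and matplotlib 3.10.9.

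The 10 genes, the lists and the tests were chosen with earlier results of these data known. Genes named are the 10, up to 4 per role of the pathway list with the largest change from 0 h among those called, the 3 nearest genes of each of the 10 (2 of these are not reported here), and the highest marker of each cell type and those at 0; Msx1 was named after its values were seen. The design had foreseen library-scaled counts. By the correlation of deviations from the group means, same-numbered libraries of 24 and 36 h deviated together (r = 0.165, 0.145 and 0.126), as did those of 24 and 48 h (0.298, 0.200 and 0.315), which were not compared directly; for the other groups at least 1 pair was not over 0.1, and the labels do not say what a number marks. Alternatives were other pseudocounts, filters, scalings and thresholds, no trend, a block for the replicate number, a fit of the compared times alone, culture libraries only, and each library left out in turn. Shh, Cd68 and Aif1 among the markers were not analysed here.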

Additional observations from a re-analysis of the deposited data

How the results depend on the processing

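Most calls against 0 h kept their direction and their side of the threshold. Requiring 1 ppm in each of the 14 libraries removed Bmp7 and Chrd, so that the genes called lower numbered 0 at 12 h and 1 at 24, 36 and 48 h (27.4%, 31.0%, 33.3% and 33.4% of all transcripts). With an unadjusted p below 0.05 and a fold change above 2 2 genes were higher at 24, 36 and 48 h (Bmp4 and Nog; 13.8%, 15.6% and 16.2% of all transcripts), 0 were lower at 24 h than at 12 h (1.89%), 1 was lower at 48 h than at 12 h (7.1%), and 14 of the other pathway genes were lower at 48 h in place of 22 (15.9%). The call of Bmpr1a from 12 to 24 h was lost, leaving 0 genes, with median-ratio scaling factors, without a trend, with only the compared time points and with the replicate block. From 24 to 36 h 1 gene, Nog, was lower with only the compared time points or the culture libraries alone (14.2% and 10.5% of all transcripts). Without a trend 1 gene differed among the culture times (40.3% of all transcripts). No scaling moved the median of all transcripts by over 0.1 on the log2 scale.

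With 1 library left out, the genes lower than at 0 h numbered 2 to 4 at 12 h and 3 to 5 at 48 h, those lower numbered 0 to 2 from 12 to 24 h, 0 to 1 (and 0 to 1 higher) from 24 to 36 h and 1 to 4 from 12 to 48 h, and 1 to 4 differed among the culture times. The shares of all transcripts in these fits were 23.3% to 28.9% and 32.1% to 34.4% lower than at 0 h, 0.406% to 5.3% lower from 12 to 24 h, 3.75% to 11.4% lower and 5.17% to 11.4% higher from 24 to 36 h, 13.6% to 22.8% lower from 12 to 48 h, and 30.7% to 46.2% different among the culture times. Leaving out 1 library turned the sign of uncalled log2 changes from 0 h of Bmpr1a at 36 h (-0.07 to 0.02), Bmpr2 at 12 h (-0.09 to 1.12), 24 h (-0.39 to 0.09) and 36 h (-0.44 to 0.04), Id1 at 48 h (-0.63 to 0.02) and Id2 at 12 h (-0.47 to 0.04). It did the same from 24 to 36 h for Bmp4 (-0.15 to 0.05) and Bmpr2 (-0.10 to 0.01), from 12 to 24 h for Chrd (-1.25 to 0.06) and Id1 (-0.18 to 0.17), from 36 to 48 h for Nog (-0.23 to 0.03) and Smad6 (-0.08 to 0.15), and from 12 to 48 h for Chrd (-0.51 to 0.07) and Id3 (-0.01 to 0.18). The cause was not tested. Without a library of 12 h the other one was assumed to vary like the other groups.

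Of 26 pairs of libraries with the same replicate number 11 had correlated deviations with r over 0.1 (-0.245 to 0.319, median 0.0675), against 6 of 52 pairs with different numbers (median -0.0375). Every pair was over 0.1 between 24 and 36 h, where the replicate block changed no call of the 10 genes (Nog -0.63, adjusted p = 0.187), and between 24 and 48 h. Elsewhere, with the replicate block, Id1 at 24 h (-0.53, adjusted p = 0.0482) and Id2 at 48 h (adjusted p = 0.0319) were called lower than at 0 h, Nog was called lower at 48 h than at 12 h (-1.18, adjusted p = 0.0232), the call of Bmpr1a from 12 to 24 h was lost (-0.33, adjusted p = 0.0599), and the uncalled change of Chrd from 12 to 48 h was 0.01. Fits of only the compared time points lost the calls of Id2 and Id3 at 24 h (-0.59 and 0.33, adjusted p = 0.0833 and 0.0572) and of Smad6 and Bmpr2 from 12 to 48 h (adjusted p = 0.125 and 0.0988), and median-ratio factors brought a call of Id2 at 48 h (-0.50, adjusted p = 0.0461). The unknown depth limits statements on Bmp7 and Chrd in culture, whose scores lie near 0.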
